A study of Mus musculus with 15 samples.

Results

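Transcripts of 10 genes of the integrated stress response and of mitochondrial one-carbon metabolism were examined in the gastrocnemius, a mainly fast-twitch calf muscle, of male mice with and without muscle Cpt1b. The genes were taken by symbol from the deposited count table, which held all 10 among its 13602 genes. They were the transcription factors Atf4, Atf5, Atf3 and Ddit3, the phosphatase subunit Ppp1r15a, the pseudokinase Trib3, the amino acid enzyme Asns, the secreted factor Gdf15, and the one-carbon enzymes Mthfd2 and Shmt2. Gdf15 was too low to test under the count filter applied to all genes, and the other 9 were tested. The 7 KO mice carried a skeletal muscle-specific knockout of Cpt1b, the enzyme that admits long-chain fatty acids into mitochondria, and the 8 control mice were wild type with the floxed gene. The sources used here name neither the Cre line nor the deleted exons. The labels disagree on diet: by title and protocol the mice ate chow for 12 to 14 weeks, but 45% HFD stands in every sample's diet field. Each library was taken as 1 animal, because the number of mice in the labels equals that of libraries.

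The integrated stress response is a shared reaction to amino acid shortage, misfolded protein, viral RNA or mitochondrial trouble. Kinases phosphorylate the translation initiation factor eIF2, general translation slows, and Atf4 mRNA is translated more. ATF4 is therefore set largely at the level of translation, which a transcript count does not measure, and its activity is usually read from target genes. In muscle with defective mitochondria these targets are known to include enzymes of serine and folate metabolism and circulating factors such as GDF15.

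Expression was measured by SAGE, which sequences and counts 1 short tag per transcript, starting at its last CATG site. One tag stands for 1 transcript, so levels are not divided by length. They are given as CPM, tag counts over the TMM-adjusted library total, scaled to 1e+06. The tags below were predicted from GENCODE M21 transcripts on GRCm38, with the CATG site in capitals, and are shown because such a tag is what a count of the gene stands for. None of the 10 predicted tags occurs in an annotated transcript of another gene.
Trib3: CATGtgcccaataaaagagagctgtgt
Mthfd2: CATGgctctacagaacctcaccaggat
Ppp1r15a: CATGggcacgccttagaaacccatctc
Gdf15: CATGgcctgcagcctgacaaggtgcct
Ddit3: CATGtccagtaaagtgactttgtgtca
The Trib3 tag lies in the 3' UTR at chr2:152337438-152337464 and the Mthfd2 tag in the 3' UTR at chr6:83306493-83306519. The Ppp1r15a tag (chr7:45523118-45523144) and the Gdf15 tag (chr8:70629660-70629686) lie in coding sequence. The Ddit3 tag, in the 3' UTR at chr10:127296259-127296285, also lies within an exon of Mars on the other strand. The sources do not state whether counting used strand, so the Ddit3 count is uncertain to that extent. The labels do not name the anchoring enzyme, and CATG is the usual SAGE site.

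Total counts ran from 9390065 to 19397255 in KO libraries and from 8334436 to 16238258 in control libraries. Tags of Cpt1b itself averaged 3.79 ± 1.64 CPM in KO muscle and 7.64 ± 3.17 CPM in control muscle (SD, n = 7 and n = 8; log2 -1.03 ± 0.31 SE, edgeR adjusted p = 0.103, and 0.0487 without control replicate 7). The tag may lie outside the deleted part and then does not check the genotype. The 8 skeletal muscle fibre markers summed to 85001 to 128052 CPM in KO libraries and to 102048 to 141944 CPM in control libraries, and 1 of the 8, the fast troponin gene Tnnt3, fell (log2 -0.65, edgeR adjusted p = 0.00629). KO replicate 4 and control replicate 7 stood apart from the other libraries on the first principal component of all tested genes, which held 44.6% of the variance, with scores of 76.2 and 51.2, against 29.7 for the next highest. Where leaving out either library changed a call, the value without it is given.

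The 10 genes did not move as 1 group. Trib3 and Mthfd2 rose in KO muscle, and Ppp1r15a fell. In these 3 genes the KO and control libraries did not overlap. The 4 transcription factors had lower means in KO muscle and Asns and Shmt2 had higher means, and none of these 6 passed the test. By edgeR's quasi-likelihood test with Benjamini-Hochberg adjustment over all 11062 genes tested, 2 of the 9 tested members passed as higher and 1 as lower. Over all genes tested, 2.17% passed, 1.67% as higher and 0.497% as lower. Unadjusted p was below 0.05 in 6 of the 9 tested members, and in 13.6% of all genes tested. Atf3, 1 of these 6, was kept in the test by the controls alone. Every KO library lay above every control library in 0.967% of all genes tested, and below in 0.226%, together 1.19%. DESeq2 called 4 members, Gdf15 among them, and 3.41% of all genes, and voom called 2 members, Trib3 and Ppp1r15a, and 2.11% of all genes. Without control replicate 7, 465 genes passed in place of 240.

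**Figure D1:**
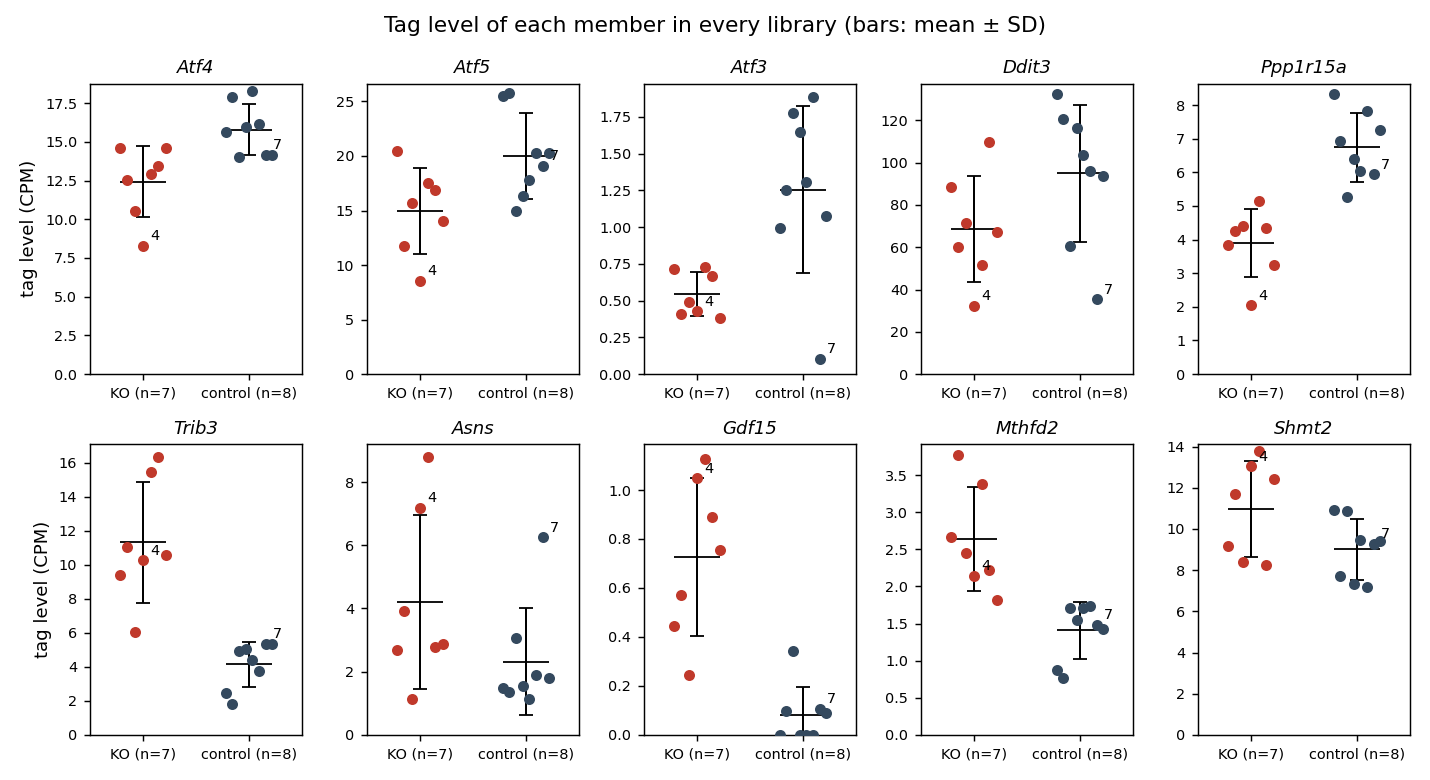
Tag level in CPM (y axis, from 0, a scale of its own in each panel) of each member in every library, with 7 KO libraries left of 8 control libraries; horizontal bars are means and whiskers SDs, and the numbers mark KO replicate 4 and control replicate 7. The groups are apart in Trib3, Mthfd2 and Ppp1r15a, and in Gdf15 only control replicate 3, at 0.342 CPM, lies above the lowest KO library, at 0.244 CPM.

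Trib3, a pseudokinase that is induced by ATF4 and DDIT3 and dampens ATF4 and Akt signalling, had the largest rise of the tested members. Its level ran from 6.03 CPM in KO replicate 3 to 16.4 CPM in KO replicate 6 with a median of 10.6 CPM in KO muscle, against 1.83 to 5.37 CPM with a median of 4.66 CPM in control muscle. All 7 KO libraries lay above all 8 control libraries, and the lowest control libraries were replicates 1 and 2. Trib3 averaged 11.3 ± 3.56 CPM in KO muscle and 4.14 ± 1.35 CPM in control muscle (SD, n = 7 and n = 8), a 2.70-fold difference (log2 1.43 ± 0.24 SE, edgeR adjusted p = 0.00174). The gene lies on chromosome 2 from 152337422 to 152344032. It passed under every one of the 26 alternative settings run, with adjusted p from 9.53e-07 to 0.0180.

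Mthfd2, the mitochondrial methylenetetrahydrofolate dehydrogenase and cyclohydrolase that is low in most adult tissues, was the only one-carbon member that rose. Levels were 1.82 to 3.77 CPM with a median of 2.44 CPM in KO libraries and 0.769 to 1.74 CPM with a median of 1.52 CPM in control libraries. The ranges did not overlap, although the lowest KO library, replicate 7, was within 0.1 CPM of the highest control library, replicate 6. Its mean was 2.64 ± 0.702 CPM in KO muscle and 1.41 ± 0.381 CPM in control muscle (SD, n = 7 and n = 8; log2 0.88 ± 0.22 SE, edgeR adjusted p = 0.0411). These levels rest on 20 to 46 tags per KO library and 7 to 28 per control library. The call was lost, with adjusted p from 0.0525 to 0.125, when KO replicate 1, 2, 3 or 5 or control replicate 1, 2, 4, 5, 6 or 8 was left out, and the log2 difference stayed between 0.77 and 0.95 over all 26 alternatives. Mthfd2 lies on chromosome 6 from 83305691 to 83325908.

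Shmt2, the mitochondrial serine hydroxymethyltransferase that feeds one-carbon units from serine to Mthfd2, had 8.24 to 13.8 CPM in KO libraries (median 11.7) and 7.18 to 10.9 CPM in control libraries (median 9.34). In 4 of 7 KO libraries it was above the highest control library, and the other 3 lay within the control range. The log2 difference of 0.29 ± 0.15 SE did not pass (edgeR adjusted p = 0.428). The highest KO libraries, replicates 5 and 4, were also the 2 KO libraries with the highest scores on the first principal component.

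Ppp1r15a, also called GADD34, brings protein phosphatase 1 to eIF2 and so ends the response. It is itself an ATF4 target and lies on chromosome 7 from 45522916 to 45526268. KO libraries had 2.05 to 5.16 CPM with a median of 4.26 CPM, and control libraries had 5.26 to 8.32 CPM with a median of 6.65 CPM. Every KO library was thus below every control library, with KO replicate 5 and control replicate 3 nearest to each other. Ppp1r15a averaged 3.90 ± 1.00 CPM in KO muscle and 6.74 ± 1.03 CPM in control muscle (SD, n = 7 and n = 8), a KO level 0.576 times that of controls (log2 -0.80 ± 0.18 SE, edgeR adjusted p = 0.0219). The adjusted p was 0.0567 without KO replicate 7 and 0.0537 without control replicate 6. Without both KO replicate 4 and control replicate 7 it was 0.0121. Its paralog Ppp1r15b, which serves eIF2 dephosphorylation in unstressed cells, had means of 13.8 CPM in KO muscle and 14.7 CPM in control muscle and did not pass (log2 -0.09, edgeR adjusted p = 0.793); whether the 2 paralogs differ in their change was not tested.

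Atf4, the central transcription factor of the response, had 8.29 to 14.6 CPM in KO libraries (median 12.9) and 14.0 to 18.3 CPM in control libraries (median 15.8). In 5 of 7 KO libraries it was below the lowest control library, and KO replicates 1 and 7 overlapped the low end of the controls. Its log2 difference of -0.35 ± 0.13 SE did not pass (edgeR adjusted p = 0.246, unadjusted p = 0.0174). Atf5, a related factor that is under similar translational control and is tied to the mitochondrial unfolded protein response, had 8.57 to 20.5 CPM in KO libraries (median 15.7) and 14.96 to 25.8 CPM in control libraries (median 19.7). The groups overlapped, with 3 of 7 KO libraries below the lowest control library. The log2 difference of Atf5, -0.42 ± 0.18 SE, did not pass (edgeR adjusted p = 0.305, unadjusted p = 0.0286).

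Atf3, a stress-induced repressor that is also an immediate early gene, lies on chromosome 1 from 191170296 to 191218039 and was the lowest of the tested members in tags. KO libraries had 0.378 to 0.725 CPM with a median of 0.489 CPM, and control libraries had 0.106 to 1.89 CPM with a median of 1.28 CPM. In 7 of 8 control libraries Atf3 was above the highest KO library, and control replicate 7, with 2 tags, was below all KO libraries. No KO library and 7 controls reached the level the count filter asks for in 7 libraries, so the controls alone kept Atf3 in the test, and its values are no support for a difference. The log2 difference of -1.20 ± 0.39 SE did not pass (edgeR adjusted p = 0.148), nor did that of -1.21 in the fit without a filter (edgeR adjusted p = 0.163). Without control replicate 7 it was -1.41 with an adjusted p of 0.00257, and without both that library and KO replicate 4 it was -1.36 with an adjusted p of 0.00552. Counts of 5 to 9 tags per KO library and 2 to 26 per control library limit this value, and in 7 of the 15 fits that left out 1 library the count filter removed the gene.

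Ddit3, which encodes the pro-apoptotic factor CHOP, had the most tags of the 10 genes. Levels ran from 32.4 to 109.98 CPM in KO libraries (median 67.1) and from 35.5 to 132 CPM in control libraries (median 99.9). The groups overlapped over most of their range, and KO replicate 4 and control replicate 7 were the lowest library of their group. The log2 difference of -0.46 ± 0.26 SE did not pass (edgeR adjusted p = 0.454), and it was -0.09 after adding 1 surrogate variable to the model (adjusted p = 0.746).

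Asns, asparagine synthetase, a classic ATF4 target, had 1.14 to 8.78 CPM in KO libraries (median 2.87) and 1.14 to 6.26 CPM in control libraries (median 1.67). It was above 6 CPM in KO replicates 5 and 4 and in control replicate 7, and at or below 3.93 CPM in the other 12 libraries. The log2 difference of 0.82 ± 0.42 SE did not pass (edgeR adjusted p = 0.397). It was 1.25 without control replicate 7 (adjusted p = 0.0633), 0.55 without KO replicate 5 (adjusted p = 0.653) and 0.44 after adding 1 surrogate variable to the model (adjusted p = 0.420). The part of whatever separates these libraries in the Asns values was not tested.

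Gdf15, a circulating TGF-beta family cytokine that acts on food intake through a hindbrain receptor, was near the detection limit. It had 3 to 22 tags in each KO library, 69 in all, and 0 to 5 tags in each control library, 9 in all. The KO level was 0.726 ± 0.323 CPM (SD, n = 7; 0.244 to 1.13 CPM, median 0.757) and the control level 0.0792 ± 0.117 CPM (SD, n = 8; 0 to 0.342 CPM, median 0.0447). In 6 of 7 KO libraries it was above the highest control library, replicate 3. Control replicates 1, 4, 5 and 6 had 0 tags, which allows levels of up to 0.373, 0.290, 0.245 and 0.218 CPM (3 tags, counting error only). KO replicate 3, with 3 tags, is at the size of these limits. In a fit of all 13602 genes with no count filter, in which 1.79% of genes passed and 1.40% passed as higher, its log2 difference was 2.92 ± 0.57 SE (edgeR adjusted p = 0.00731). Without control replicate 3, the highest control, it was 3.72 (adjusted p = 0.00118). A fitted fold of a gene with so many zeros depends on the prior count and is no estimate of its true fold.

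**Figure D2:**
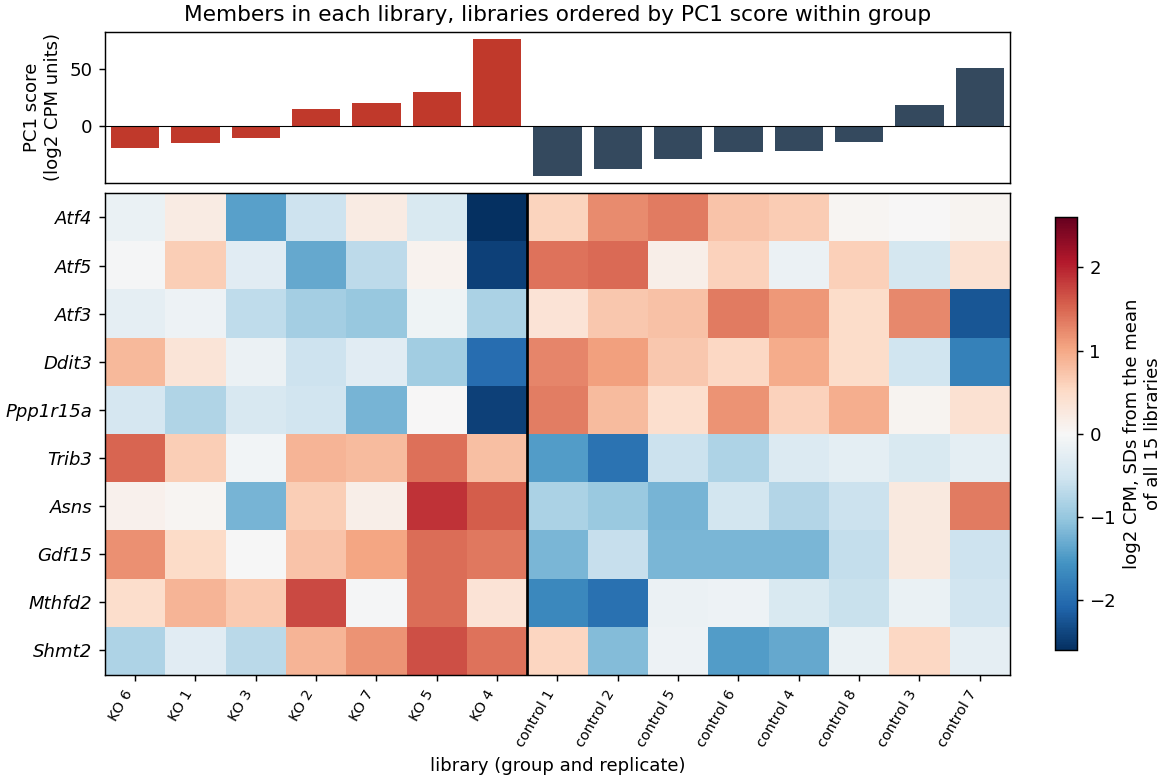
Members (rows) in each library (columns, KO left of control, each ordered by its score on the first principal component, shown as bars in the top panel); colour is log2 CPM in SDs from the mean of all 15 libraries. Trib3, Gdf15 and Mthfd2 are mostly red in KO columns, Ppp1r15a and Atf3 mostly blue, and the columns at the right end of each group (KO replicate 4 and control replicate 7) are low in Ddit3 and high in Asns.

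The libraries gave the members unequal patterns within a group. KO replicate 4 held the lowest Atf4, Atf5, Ddit3 and Ppp1r15a levels of the KO group, and its Asns, Shmt2 and Gdf15 levels were each the second highest of that group. Control replicate 7 held the lowest Ddit3 and Atf3 levels and the highest Asns level of the controls, while its Ppp1r15a level of 5.94 CPM and Trib3 level of 5.36 CPM lay among those of the other controls. Likeness to Atf4 was measured over the 15 libraries as the root mean square difference of log2 CPM deviations from the group mean, scaled to unit SD, where the median over 11061 genes was 1.38. The nearest genes were Tab2 (0.379), Asb11 (0.408), Eif2c1 (0.450), Ctdnep1 (0.470) and Tufm (0.472), and none of these 5 passed between the groups (edgeR adjusted p from 0.328 to 0.851). The nearest members were Ddit3 at 0.813, in rank 786, and Atf5 at 0.832, in rank 906. Ppp1r15a (0.961, rank 1902) and Atf3 (1.18, rank 3802) were also nearer to Atf4 than the median gene. Trib3 (1.39, rank 5634) and Mthfd2 (1.40, rank 5752) were about as far from Atf4 as the median gene. Shmt2 (1.54, rank 7090) and Asns (1.60, rank 7889) were farther. The genes share the same libraries, so these values are a description.

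Upstream stretches of members with and without matches are shown to place these differences beside the letters ATF4 is known to bind. RefSeq promoter windows (GRCm38.p6, 250 bases before to 50 after the start) were matched for all 10 members, in 12 windows. Both strands were searched for TGATGNAA, the core of the C/EBP-ATF response element, and for TGACGTCA, the cAMP response element; neither motif contains the other. TGATGNAA was present in 3.97% of all 32851 windows and in 1 window each of Trib3, Asns and Atf3. TGACGTCA was present in 1.79% of all windows and, among the members, in Ppp1r15a. The stretches run from 120 bases before the start to 30 after it, on the strand of the gene, with matches in capitals.
Trib3: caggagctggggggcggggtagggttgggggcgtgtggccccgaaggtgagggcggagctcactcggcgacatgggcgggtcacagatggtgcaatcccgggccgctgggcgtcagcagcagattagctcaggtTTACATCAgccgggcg
Asns: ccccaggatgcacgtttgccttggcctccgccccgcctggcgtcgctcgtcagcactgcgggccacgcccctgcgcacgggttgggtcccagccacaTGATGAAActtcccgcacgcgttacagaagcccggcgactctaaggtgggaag
Atf3: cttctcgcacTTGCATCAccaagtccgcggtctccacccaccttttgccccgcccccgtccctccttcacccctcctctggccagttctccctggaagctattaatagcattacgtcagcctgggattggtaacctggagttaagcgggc
Ppp1r15a: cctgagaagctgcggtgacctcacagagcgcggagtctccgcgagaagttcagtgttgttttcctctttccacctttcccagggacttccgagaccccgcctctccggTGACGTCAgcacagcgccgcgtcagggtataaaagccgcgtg
Mthfd2: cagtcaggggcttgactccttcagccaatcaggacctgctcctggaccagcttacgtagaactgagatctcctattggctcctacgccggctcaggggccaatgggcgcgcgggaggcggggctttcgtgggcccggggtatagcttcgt
They lie, all on the minus strand, at chr2:152344031-152344180 (Trib3), chr6:7693180-7693329 (Asns), chr1:191183304-191183453 (Atf3), chr7:45526239-45526388 (Ppp1r15a) and chr6:83317575-83317724 (Mthfd2). The RefSeq starts of Atf3 and Mthfd2 lie inside the longer gene spans given above from GENCODE. In Trib3 and Atf3 the capitals read TGATGNAA on the other strand, from base 15 to base 22 after the start in Trib3 and from 110 to 103 bases before it in Atf3, and in Asns the match runs from 23 to 16 bases before the start. Of the 3 members with TGATGNAA, Trib3 rose in KO muscle, and Asns and Atf3 did not pass the test. Mthfd2, which rose, has neither motif in its window. A match is not a measured binding site, and no binding was measured here.

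**Figure D3:**
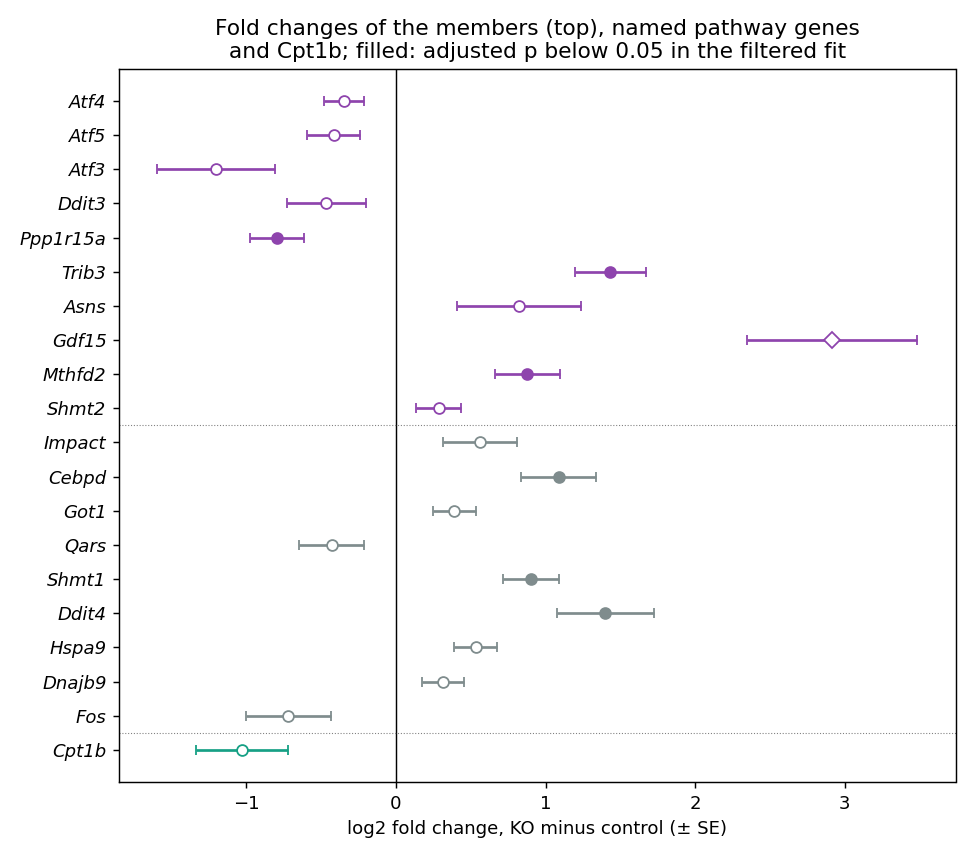
Log2 fold change of KO minus control with its SE (x axis) for the 10 members (purple), the genes named from the wider lists (grey) and Cpt1b (green). Filled circles passed an adjusted p of 0.05, and the diamond marks Gdf15, from the fit without a count filter. Trib3 and Mthfd2 lie to the right of 0 and Ppp1r15a to the left, all filled.

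Around the members, genes of the wider lists were called at a share near that of all genes tested. The 9 wider lists, which include the immediate early genes, held 145 genes, of which 134 were in the table and 120 were tested. Of these, 3 rose and none fell by edgeR (2.50%, against 2.17% of all genes tested). An unadjusted p below 0.05 was found for 21 of the 120, a higher share than the 13.6% of all genes tested (1501 of 11062). Their median log2 difference was 0.05, against 0.0047 over all genes tested. The 3 that rose were Shmt1, Ddit4 and Cebpd. The count was 1 without KO replicate 7 or control replicate 1, 5 or 6, and 5 without control replicate 7. DESeq2 called 6, voom 3, and 8 were called without both KO replicate 4 and control replicate 7, the immediate early genes Fos and Zfp36 among the 8.

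Shmt1, the cytosolic serine hydroxymethyltransferase, was the 1 gene of 18 tested in the folate and one-carbon list that rose, with none lower. It had 9.57 to 22.3 CPM in KO libraries (median 13.9) and 5.34 to 9.91 CPM in control libraries (median 7.75), and 6 of 7 KO libraries were above the highest control library. The log2 difference was 0.90 ± 0.19 SE (edgeR adjusted p = 0.0111), and it passed in all 26 alternative settings. The cytosolic and mitochondrial serine hydroxymethyltransferases thus stood at log2 0.90 (Shmt1) and 0.29 (Shmt2), and the difference between the 2 genes was not tested. Mthfd1, the cytosolic trifunctional folate enzyme, had means of 40.5 CPM in KO muscle and 30.1 CPM in control muscle and did not pass (edgeR adjusted p = 0.270). Aldh1l2, a mitochondrial formyltetrahydrofolate dehydrogenase and ATF4 target, had 4.72 CPM in KO muscle and 4.34 CPM in control muscle (edgeR adjusted p = 0.780). The median log2 difference of the list was 0.06. With 1 surrogate variable in the model, 2 genes of the list were called as higher.

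Ddit4, also called REDD1, a stress-induced inhibitor of mTORC1, rose among 10 tested outputs of the response, of which none fell. It had 2.18 to 9.38 CPM in KO libraries (median 4.45) and 0.796 to 2.90 CPM in control libraries (median 1.68), with 6 of 7 KO libraries above the highest control library. The log2 difference was 1.40 ± 0.32 SE (edgeR adjusted p = 0.0256). The adjusted p was 0.0551 without KO replicate 4, 0.0584 without KO replicate 7, 0.0567 without control replicate 1, 0.0556 without control replicate 5 and 0.0527 without control replicate 6. Chac1, a glutathione-degrading enzyme and ATF4 target, stood at 18.7 CPM in KO muscle and 18.6 CPM in control muscle (log2 0.0038, edgeR adjusted p = 0.996), and its sign turned under 2 of the 3 other scalings.

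Cebpd, a bZIP factor of the C/EBP family, rose among 8 tested partners and related factors, of which none fell. KO libraries had 74.2 to 193 CPM (median 112) and control libraries 29.4 to 92.8 CPM (median 52.2), and 4 of 7 KO libraries were above the highest control library. Its log2 difference was 1.09 ± 0.25 SE (edgeR adjusted p = 0.0274), and the call was lost, with adjusted p from 0.0538 to 0.0686, without KO replicate 1, 2, 4 or 7 or control replicate 1, 5, 6 or 8. It was also lost after adding 1 surrogate variable to the model (adjusted p = 0.0785). Cebpb and Cebpg, which pair with ATF4, had log2 differences of 0.65 and 0.02 and did not pass (edgeR adjusted p = 0.533 and 0.919). Without both KO replicate 4 and control replicate 7, 1 gene of this list was called as lower.

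**Figure D4:**
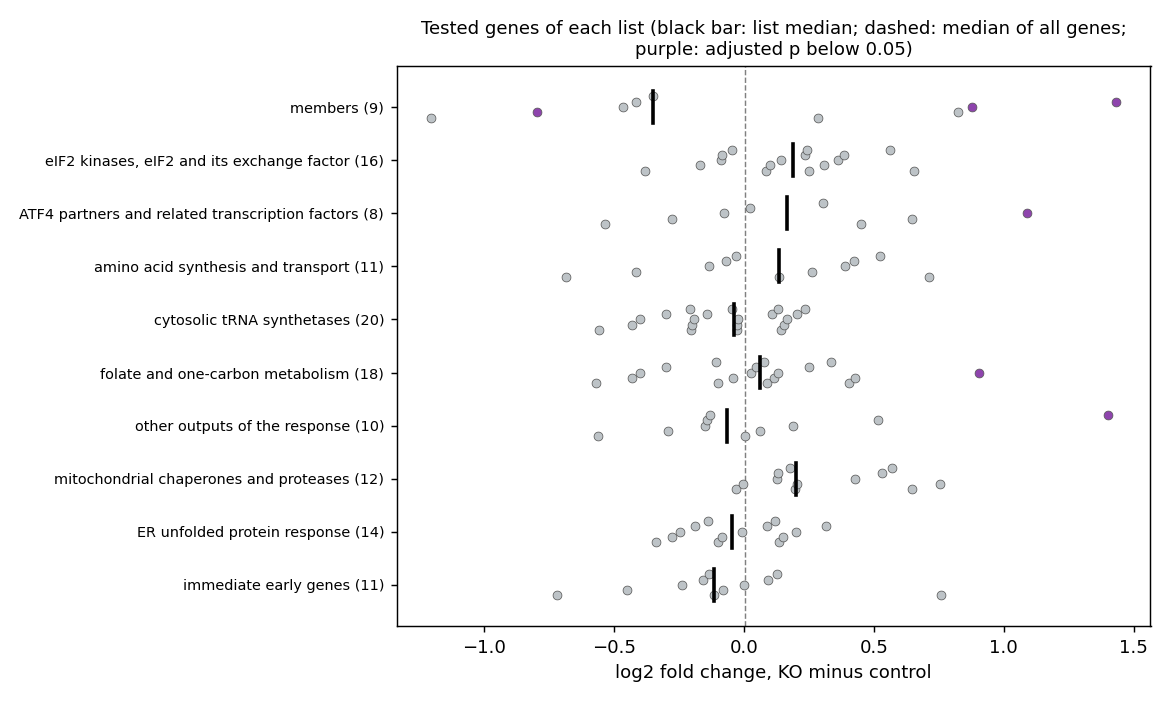
Log2 fold change of KO minus control (x axis) of each tested gene in the members and the 9 wider lists (rows, with the number tested); black bars are list medians, the dashed line is the median of all genes tested, and purple points passed an adjusted p of 0.05. The members spread from -1.20 to 1.43, and the purple points outside the members are Cebpd, Shmt1 and Ddit4.

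Genes of eIF2 control and the tRNA synthetases gave no call by edgeR. Of 16 tested genes of the eIF2 kinases, eIF2 and its exchange factor, none passed by edgeR, DESeq2 or voom, 3 had an unadjusted p below 0.05, and the median log2 difference was 0.19. The smallest p was that of Impact, an inhibitor of the kinase GCN2 (18.8 CPM in KO muscle and 12.7 CPM in control muscle, edgeR adjusted p = 0.327), with a log2 difference of 0.56, and 0.29 without KO replicate 4 (adjusted p = 0.640). The kinase genes Eif2ak1, Eif2ak2, Eif2ak3 and Eif2ak4 had log2 differences of 0.14, -0.05, 0.25 and 0.08, and that of Eif2ak2 turned to 0.0033 when libraries were scaled by their totals. Their activity depends on phosphorylation, which was not measured. Of 20 cytosolic tRNA synthetases, many of them ATF4 targets, none passed by edgeR, DESeq2 or voom and none had an unadjusted p below 0.05. Their median was -0.04, and Qars came nearest (log2 -0.43 ± 0.22 SE, edgeR adjusted p = 0.400).

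Among 11 tested genes of amino acid synthesis and transport none passed by edgeR, DESeq2 or voom, and 3 had an unadjusted p below 0.05. Got1, the cytosolic aspartate aminotransferase, had the smallest p (1549 CPM in KO muscle and 1182 CPM in control muscle, edgeR adjusted p = 0.220). Psat1, an enzyme of serine synthesis, had a log2 difference of 0.52 (edgeR adjusted p = 0.470), and Phgdh, Pycr1, Slc7a11, Slc7a5 and Slc1a4 were too low to test. Without control replicate 4, Psat1 was called (log2 0.92, edgeR adjusted p = 0.0303). With 1 surrogate variable in the model, 1 gene of the list was called as higher.

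Mitochondrial chaperones and proteases gave no call by edgeR. DESeq2 called 3, where it called 3.41% of all genes. With 1 surrogate variable in the model 4 were called, where 493 of all 11062 genes tested were. Without both KO replicate 4 and control replicate 7, 2 were called, where 403 of 10975 genes were. All these calls were higher. Of the 12 tested, 10 had positive log2 differences, where 50.6% of all genes tested did, the median was 0.20 and 3 had an unadjusted p below 0.05. Hspa9, the mitochondrial HSP70, averaged 363 ± 76.1 CPM in KO muscle and 251 ± 40.2 CPM in control muscle (SD, n = 7 and n = 8; log2 0.53 ± 0.14 SE, edgeR adjusted p = 0.0623). Its adjusted p was 0.0466 without KO replicate 6, 0.0261 without control replicate 7 and 0.0127 by DESeq2. Hspd1, the mitochondrial chaperonin, and the protease subunit Afg3l2 had log2 differences of 0.65 and 0.43 and did not pass by edgeR (adjusted p = 0.0954 and 0.0761). Every KO library lay above every control library in Afg3l2, as in 0.967% of all genes tested. Hspd1 was called without control replicate 7 (adjusted p = 0.0207) and without both that library and KO replicate 4 (adjusted p = 0.00732). Voom called none of the list. In the ER unfolded protein response list none of 14 tested genes passed by edgeR, DESeq2 or voom, 1 had an unadjusted p below 0.05, and the median was -0.05. The ER chaperone Hspa5 stood at 298 CPM in KO muscle and 280 CPM in control muscle (edgeR adjusted p = 0.782), and Dnajb9 had the smallest p of the list (log2 0.32, edgeR adjusted p = 0.332).

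Immediate early genes, of which Atf3 can be counted as 1, were set beside the members because dissection can induce them. None of 11 tested passed by edgeR, DESeq2 or voom, and 3 had an unadjusted p below 0.05. Of the 11 log2 differences 3 were positive and 8 negative, where 50.6% of all genes tested had positive ones. The summed level of the list was 179 to 234 CPM in KO libraries and 183 to 245 CPM in control libraries. Jun was the largest part of this sum (means of 76.4 CPM in KO muscle and 85.2 CPM in control muscle), and Fos added little to it. Fos had 0.832 to 3.43 CPM in KO libraries (median 1.51) and 1.61 to 4.06 CPM in control libraries (median 2.61), with 6 of 7 KO libraries below the lowest control library. Its log2 difference was -0.72 ± 0.28 SE (edgeR adjusted p = 0.262), and -1.04 with an adjusted p of 0.0310 without KO replicate 4. Zfp36 had a higher mean in KO muscle (4.35 CPM, against 2.49 CPM in control muscle, log2 0.76, edgeR adjusted p = 0.364). Without both KO replicate 4 and control replicate 7, Zfp36 was called as higher (log2 1.24, adjusted p = 0.00332) and Fos as lower (log2 -0.99, adjusted p = 0.0359). Fos was also called as lower with 1 surrogate variable in the model. The part of these genes in the Atf3 and Ppp1r15a values was not tested.

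In whole muscle, fewer cells of a type and less RNA per cell cannot be told apart. Macrophage markers, of which none of 5 tested passed by edgeR, DESeq2 or voom and 2 had an unadjusted p below 0.05, summed to 24.4 to 45.6 CPM in KO libraries and 32.4 to 63.0 CPM in control libraries. Fibroblast markers summed to 1160 to 2921 CPM in KO libraries and 2008 to 3645 CPM in control libraries. None of 5 passed by edgeR or voom, and 2 had an unadjusted p below 0.05. As lower, 1 passed by DESeq2 and 1 without both KO replicate 4 and control replicate 7. Col1a1 had means of 815 CPM in KO muscle and 1670 CPM in control muscle (log2 -1.03, edgeR adjusted p = 0.0863). Of the 5 markers, 2 had positive log2 differences and 3 negative. Adipocyte marker sums overlapped between the groups, at 905 to 1642 CPM in KO libraries and 859 to 1163 CPM in control libraries. Most of the adipocyte sum was Fabp4, with means of 1105 CPM in KO muscle and 949 CPM in control muscle. Adipoq had 14.3 to 78.8 CPM in KO libraries and 20.7 to 42.3 CPM in control libraries (edgeR adjusted p = 0.988). None of the 6 adipocyte markers passed by edgeR, DESeq2 or voom. Endothelial marker sums also overlapped, at 162 to 256 CPM in KO libraries and 171 to 285 CPM in control libraries. No marker measured was at 0 in any library. The part of these cell types in the member values was not tested.

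**Figure D5:**
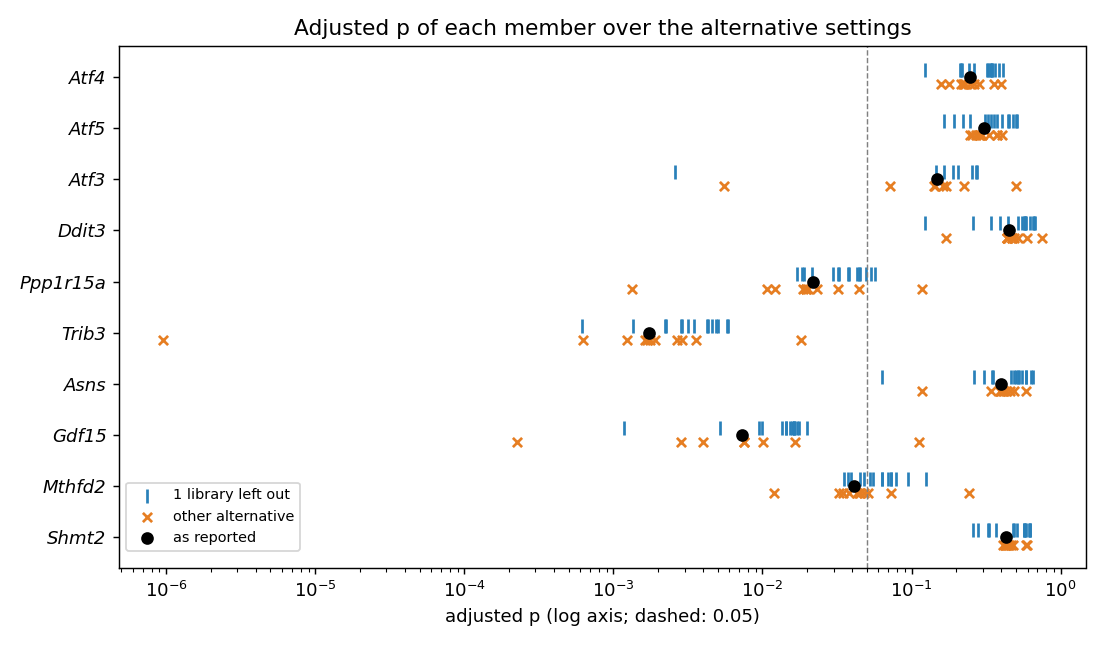
Adjusted p (x axis, log scale, dashed line at 0.05) of each member as reported (black), with 1 library left out (blue ticks) and under the other alternatives (orange crosses); Gdf15 is from fits without a count filter. All Trib3 marks lie left of the line, those of Mthfd2 and Ppp1r15a lie on both sides, and Atf3 has a blue tick at 0.00257, without control replicate 7.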

How the data were processed

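SOLiD SAGE libraries of 7 KO and 8 control gastrocnemius muscles, from 500 ng of RNA each per the labels' protocols, were analysed. The authors deposited raw tag counts per gene symbol (13602 genes, and 360 lines without a symbol or counts, dropped). They also deposited a table of signal values that are the same counts over a size factor of each library (they deviate by at most 5.23e-10 of the value), used here only as an alternative scaling. The submitters' processing notes name DESeq2, mm10 and GRCm38.p1; aligner, counting and strand use are not given in the sources used here. Counts were tested with edgeR 4.0.16 (R 4.3.3; TMM, filterByExpr with minimum count 10, robust quasi-likelihood, group as only term), which left 11062 genes, with Benjamini-Hochberg adjustment at 0.05. A prior count of 2 was added for log2 CPM. No 2 libraries of the same group agreed within sampling noise. Alternatives used DESeq2 1.42.0, limma 3.58.1 and sva 3.50.0. Positions come from GENCODE M21. Of the genes in the lists, the named ones are the members, Cpt1b, called genes up to 4 per list, or the gene with the smallest p, and the 5 genes most like Atf4; genes outside this rule (Ppp1r15b, Mthfd1, Aldh1l2, Chac1, Cebpb, Cebpg, the eIF2 kinases, Psat1, Hspd1, Afg3l2, Hspa5, Zfp36, Tnnt3) were chosen after their values were seen. Jun, Fabp4, Adipoq and Col1a1 were named beside list sums, also after their values were seen, and were not followed in the alternatives. The members and lists were chosen with earlier results of these data known.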

Additional observations from a re-analysis of the deposited data

Results flagged for a closer look

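Of 40 sets of values examined (20 genes in each group), 5 had 1 library far from the others. The rule flags about 1 set in 20 when values are normally distributed. The CPM values were not log-transformed, and Gdf15 had 0 to 5 tags per control library, so this rate is only a rough guide. In KO muscle, KO replicate 4 stood alone at the top for Impact (37.9 CPM, next 19.6), Shmt1 (22.3 CPM, next 14.4) and Fos (3.43 CPM, next 1.55). Among controls, replicate 7 stood alone for Asns at 6.26 CPM, with the next control at 3.07 CPM, and replicate 3 for Gdf15 at 0.342 CPM, with the next control at 0.106 CPM. KO replicate 4 and control replicate 7 were also the libraries with the highest scores on the first principal component (76.2 and 51.2). They had the highest total counts of their groups as well (19397255 and 16238258). The cause was not tested. Shmt1 passed without KO replicate 4 as well (log2 0.75, edgeR adjusted p = 0.0183).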

How the results depend on the processing

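Trib3 and Shmt1 passed in all 26 alternatives, and no member, Cpt1b or gene named by the list rule changed direction in those that gave it a value. Of 21 other genes followed in the alternatives, Chac1 turned under RLE scaling (-0.0088), the authors' size factors (-0.0046), DESeq2 (-0.0032) and voom (-0.00046). Eif2ak2 turned with library totals alone (0.0033) and Ppp1r15b with the surrogate variable (0.039). Leaving out 1 library gave log2 differences of -0.11 to 0.12 for Chac1, -0.15 to 0.010 for Eif2ak2 and -0.0093 to 0.15 for Eif2ak4, none past the threshold. Scaling, the count filter and the authors' size factors left the 3 tested members called; Mthfd2 was lost by voom (adjusted p = 0.0510), where 1 member was called higher. DESeq2 called 455 genes (310 higher, 145 lower) and 6 genes of the wider lists. The surrogate variable gave 493 (350 and 143) and 9. Leaving out both control replicate 7 and KO replicate 4 gave 403 (148 lower), 2 members lower and 8 genes of the wider lists. Leaving out 1 library gave 161 to 465 genes (131 to 311 higher, 30 to 154 lower). It gave 1 to 4 members (1 to 2 higher, 0 to 2 lower) and 1 to 5 genes of the wider lists. The replicate numbers did not pair the samples (correlations of same-numbered pairs from -0.450 to 0.314, above 0.1 in 3 of 7; 1 of 7 KO libraries was closest to the control of its number). With the replicate block 117 genes passed (98 higher, 19 lower) and 1 member, Trib3, was called, 1 higher and 0 lower (Gdf15 without the filter: adjusted p = 0.112). The same 14 libraries without the block, a fit added after seeing the data, gave 192 genes and 2 members, 1 called higher and Ppp1r15a lower (adjusted p = 0.0444, and 0.117 with the block). Cebpd was lost with the block (0.0697) and without it (0.0551), and Tnnt3 with it (0.0979). Causes were not tested. Depth limits Gdf15, Atf3 and Mthfd2.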
